A study of Homo sapiens with 6 samples.

Results

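The SLC27 genes encode the 6 fatty acid transport proteins SLC27A1 to SLC27A6, and they were described here together with CD36 and FABP5, which act beside them in fatty acid uptake. These 8 genes were taken by gene symbol from an array experiment with 21448 probe sets, of which 17709 carried a single gene symbol and 17687 symbols were distinct. Each of the 8 genes had 1 probe set, so all 8 were measured. The set was chosen by a measured value, the log2 difference of SLC27A6 between the groups of this same comparison, and was then filled with its relatives and partners by name. Levels and differences of the 8 genes are therefore given as a description, without a test.

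The cells were K562, an established human erythroleukaemia cell line with the BCR-ABL1 fusion, labelled as bone marrow in tissue and erythroleukemia in genotype on all 6 arrays. The study compared 3 replicates of K562 carrying a control vector with 3 replicates of K562 carrying a miR-543 vector, the latter labelled as overexpressing miR-543. Its title names TET1 and TET2, which oxidise methylated cytosine in DNA, as the targets under study. The type of vector, its promoter, the time after its delivery and whether the cells were single clones are not given in the sources used here, and the level of miR-543 itself was not analysed here. The labels leave unstated whether each replicate was its own culture, and the p-values below therefore cover the spread among these samples alone, part or all of which may be technical.

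Long-chain fatty acids enter cells partly by diffusion and partly with the help of membrane proteins. SLC27 proteins carry an acyl-CoA synthetase activity, which joins the incoming fatty acid to coenzyme A and so keeps it inside the cell. CD36 is a surface receptor that binds fatty acids and lipoproteins, and FABP5 is a cytosolic protein that carries fatty acids between membranes and to the nucleus. Once activated, a fatty acid can be burned in mitochondria, shortened in peroxisomes, elongated, or stored as triglyceride.

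The microRNA in the vector is shown because it is the only sequence that the labels say differs between the groups. In RefSeq, hsa-miR-543 is encoded at chr14:101032033-101032054 of GRCh38.p14, on the plus strand, and has 22 bases. In the line that follows, capitals mark the seed, bases 2 to 8, which is the stretch that pairs with target mRNAs.
hsa-miR-543: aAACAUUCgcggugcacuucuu
Of 2545 mature human microRNAs in the RefSeq table, this 1 alone carried that seed. Target sites in the mRNAs of the 8 genes were not analysed here.

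The promoters of SLC27A6 and SLC27A2 are shown because these were the transporters whose arrays separated by group, and because CpG, the dinucleotide on which TET enzymes act, can be read from them. Each is the RefSeq window from 250 bases before to 50 bases after the annotated start in GRCh38.p14, on the plus strand, at chr5:128965238-128965537 for SLC27A6 and chr15:50181946-50182245 for SLC27A2. Capitals mark each CpG.
SLC27A6: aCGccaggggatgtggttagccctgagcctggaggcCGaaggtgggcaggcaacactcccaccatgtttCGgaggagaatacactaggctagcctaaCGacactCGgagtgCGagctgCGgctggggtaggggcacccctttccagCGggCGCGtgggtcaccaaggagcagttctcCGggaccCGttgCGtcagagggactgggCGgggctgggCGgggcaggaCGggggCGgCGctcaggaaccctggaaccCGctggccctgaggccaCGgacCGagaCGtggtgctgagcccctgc
SLC27A2: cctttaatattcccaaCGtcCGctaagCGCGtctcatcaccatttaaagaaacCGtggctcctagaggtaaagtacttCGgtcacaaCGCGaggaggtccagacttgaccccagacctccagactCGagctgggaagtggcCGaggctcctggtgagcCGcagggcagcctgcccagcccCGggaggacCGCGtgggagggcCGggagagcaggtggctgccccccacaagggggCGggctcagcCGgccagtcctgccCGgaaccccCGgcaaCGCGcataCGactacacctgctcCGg
The SLC27A6 window held 22 CpG and had a GC content of 68.3%, and the SLC27A2 window held 23 CpG at 65.0% GC. The median over 35116 such promoter windows was 14 CpG, with quartiles of 4 and 28, and 62.3% of them held fewer CpG than SLC27A6. DNA methylation was not measured on these arrays.

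Promoter windows were found for 7 of the 8 genes, and their CpG counts ran from 1 to 38. SLC27A4, SLC27A1 and SLC27A3 held 38, 31 and 26 CpG. SLC27A5 held 2, and the 6 windows listed for CD36 held 1 to 3 each. The letters AGGTCA, the half-site that PPAR and other nuclear receptors read, were searched on both strands and lay in 0 of the 12 windows of these genes, against 13.8% of all windows. The letters GATAA, read by GATA factors, were searched on both strands and lay in 3 of the 6 CD36 windows and in 0 of the SLC27 windows, against 22.7% of all windows. Neither set of letters contains the other. Some of the 6 CD36 windows overlap each other, windows with GATAA among them, so they are not separate stretches and a match may be counted more than once. These matches describe letters in a short window and no binding was measured.

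The 6 arrays had log2 medians of 5.99 to 6.01. Pearson's r over probe sets, which do not count as independent replicates, was 0.995 to 0.996 within groups and 0.993 to 0.995 between them. Of 11 measured erythroid markers, 9 lay above the array medians in both groups, among them the embryonic globin HBE1 (group means 15.7 and 15.8) and the erythroid factor GATA1 (15.7 and 15.7). AHSP and EPB42, genes of late red cells, lay below. All 7 adipocyte and all 8 hepatocyte markers, types with high fatty acid uptake, lay below the array medians, as did 6 of 7 monocyte, 4 of 6 lymphoid and 5 of 6 stromal markers. Of 6 epithelial markers 5 lay above. LYZ, CD3D, CD79A and COL1A2 also lay above. No marker of any list was called by limma. At an unadjusted p under 0.05, which 10.6% of all probe sets had, there were 3 of 11 erythroid markers (27.3%), 1 adipocyte marker, LPL (lower), and 1 lymphoid marker, CD3D (higher). The 3 erythroid markers were the red cell factors KLF1 and TAL1 and the heme synthesis enzyme ALAS2. Their log2 changes were 0.66, 0.41 and 0.40 (limma adjusted p = 0.106, 0.371 and 0.385). All 3 were higher with the miR-543 vector and without overlap between groups, as were 7.89% of all probe sets. Of the 11 erythroid markers 9 lay above 0, with a median of 0.14, and their part in the results that follow was not tested. In RNA from whole cultures, fewer cells that make a transcript and less of it per cell cannot be told apart.

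SLC27A6, also called FATP6, is the transporter of the family best known from heart muscle. Its lower signal with the miR-543 vector is what prompted the set, so the values that follow describe that choice. On the control arrays its log2 signal was 8.62, 8.77 and 8.62, and on the miR-543 arrays it was 7.14, 6.82 and 7.28. Every miR-543 array was lower than every control array, and all 6 lay above the array medians. The group means were 8.67 ± 0.087 and 7.08 ± 0.24 (SD, n = 3). The log2 difference, miR-543 minus control, was -1.59 with a moderated standard error of 0.16, which is 33.2% of the control level or 3.01-fold lower. Among all 21448 probe sets, 10 had a lower log2 difference than SLC27A6, a rank from which nothing is read.

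**Figure D1:**
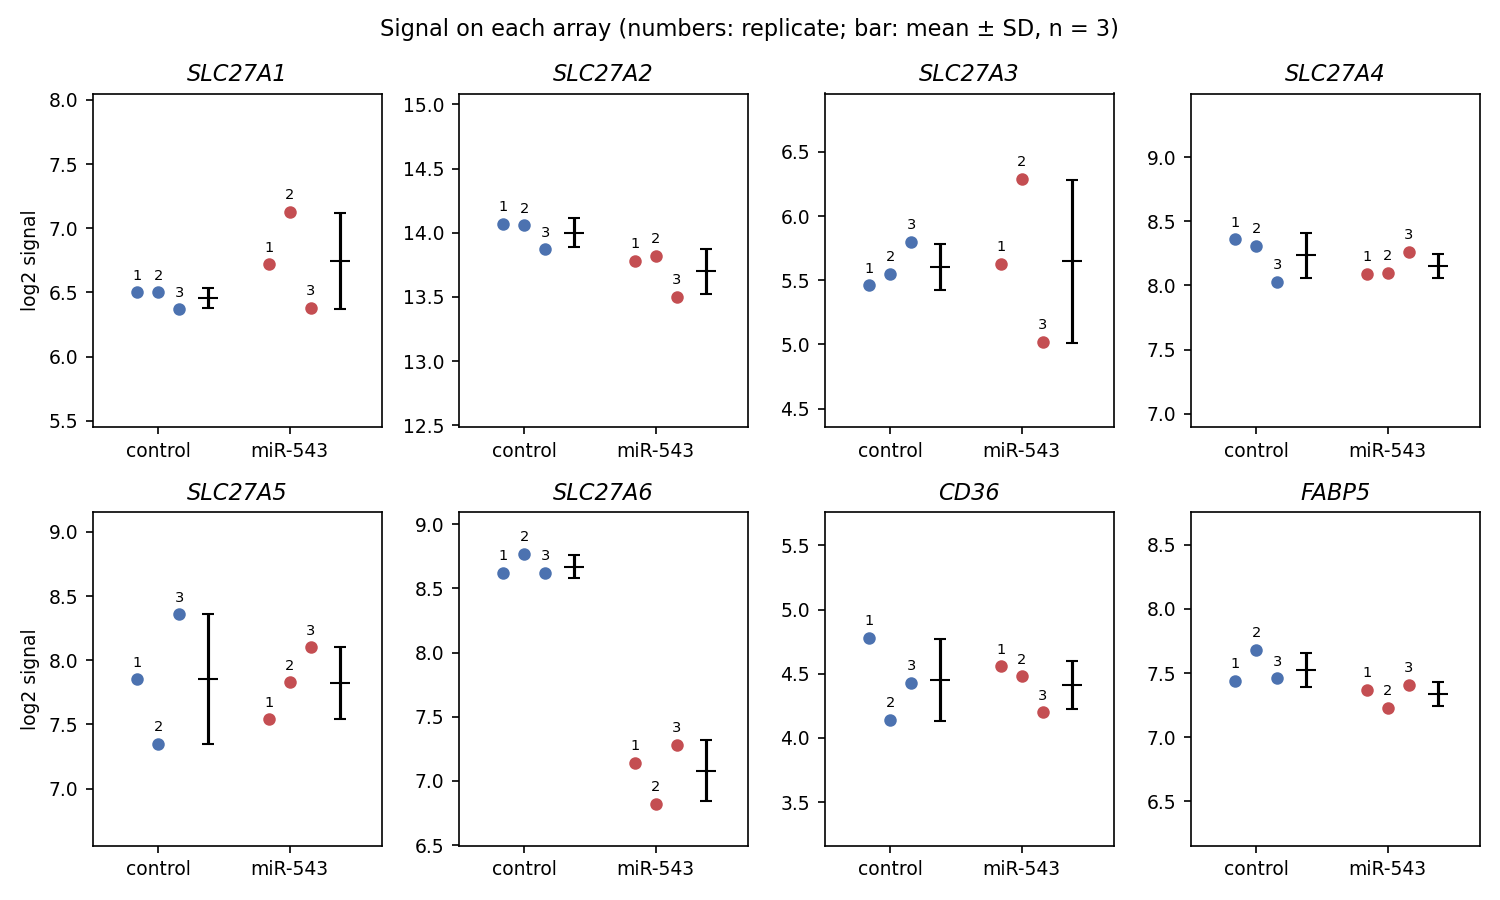
Log2 signal of the 8 fatty acid uptake genes on each array, with replicates numbered, control vector in blue, miR-543 vector in red, and the mean ± SD of 3 arrays in black; every panel spans the same height on the log2 axis. SLC27A6 separates into 8.62 to 8.77 and 6.82 to 7.28, while most other genes intermingle.

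SLC27A2 is a very long chain acyl-CoA synthetase of peroxisomes and the endoplasmic reticulum, and after SLC27A6 it showed the next largest difference towards a lower level. Its signal was 14.07, 14.06 and 13.87 on the control arrays and 13.78, 13.82 and 13.50 on the miR-543 arrays. The groups did not overlap, but control replicate 3 and miR-543 replicate 2 lay close together. The log2 difference was -0.30, with an SE of 0.15 and a 95% interval of -0.63 to 0.03. On the linear scale SLC27A2 stood at 81.2% of its control signal. SLC27A2 was bright on every array, so its small difference was not read from a dim probe set.

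SLC27A5, the bile acyl-CoA synthetase known from liver, acts on bile acids as well as on very long chain fatty acids. Its signal was 7.85, 7.35 and 8.36 on the control arrays and 7.54, 7.83 and 8.10 on the miR-543 arrays. The control arrays alone spanned 1.01 log2 units and enclosed every miR-543 array. The log2 difference was -0.03 (SE 0.24), with a wide 95% interval of -0.57 to 0.51.

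SLC27A1, which is known from muscle and fat where insulin moves it to the surface, had the largest difference towards a higher level. Its signal was 6.50, 6.50 and 6.37 on the control arrays and 6.72, 7.13 and 6.38 on the miR-543 arrays. The groups overlapped, because miR-543 replicate 3 lay among the controls while replicate 2 lay well above them. The log2 difference was 0.29 (SE 0.19, 95% interval -0.13 to 0.70). It was 0.093 without miR-543 replicate 2 and 0.47 without miR-543 replicate 3, so its size rested on single arrays.

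SLC27A3, a family member with acyl-CoA synthetase activity, had the widest spread of the set. Its signal was 5.46, 5.55 and 5.80 on the control arrays and 5.63, 6.29 and 5.02 on the miR-543 arrays. The miR-543 arrays spanned 1.27 log2 units and enclosed the controls on both sides. The residual SD was 0.47, and 98.0% of all probe sets had a smaller one. As for SLC27A1, replicate 2 was the highest and replicate 3 the lowest of the miR-543 arrays. The signal of SLC27A3 lay above the array median on 1 of 6 arrays, and its log2 difference was 0.04 (95% interval -0.56 to 0.64).

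SLC27A4, the main family member of small intestine and skin, was among the steadiest. Its signal was 8.36, 8.31 and 8.03 on the control arrays and 8.09, 8.10 and 8.26 on the miR-543 arrays. The miR-543 arrays all lay within the range of the controls. The log2 difference was -0.08 (SE 0.15, 95% interval -0.41 to 0.24). A change as large as that of SLC27A6 lies outside this interval, as it does for all other genes of the set.

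The proteins outside the family were CD36 and FABP5. CD36 had a signal of 4.78, 4.14 and 4.43 on the control arrays and 4.56, 4.48 and 4.20 on the miR-543 arrays. All 6 values lay below the array medians and the groups intermingled, with a log2 difference of -0.04 (95% interval -0.45 to 0.38). No detection calls were used, so whether CD36 was above background is unknown.

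FABP5 had a signal of 7.44, 7.68 and 7.46 on the control arrays and 7.37, 7.23 and 7.41 on the miR-543 arrays. The groups did not overlap, but their nearest arrays, at 7.44 and 7.41, were almost level. The log2 difference was -0.19, with an SE of 0.14 and a 95% interval of -0.50 to 0.12.

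**Figure D2:**
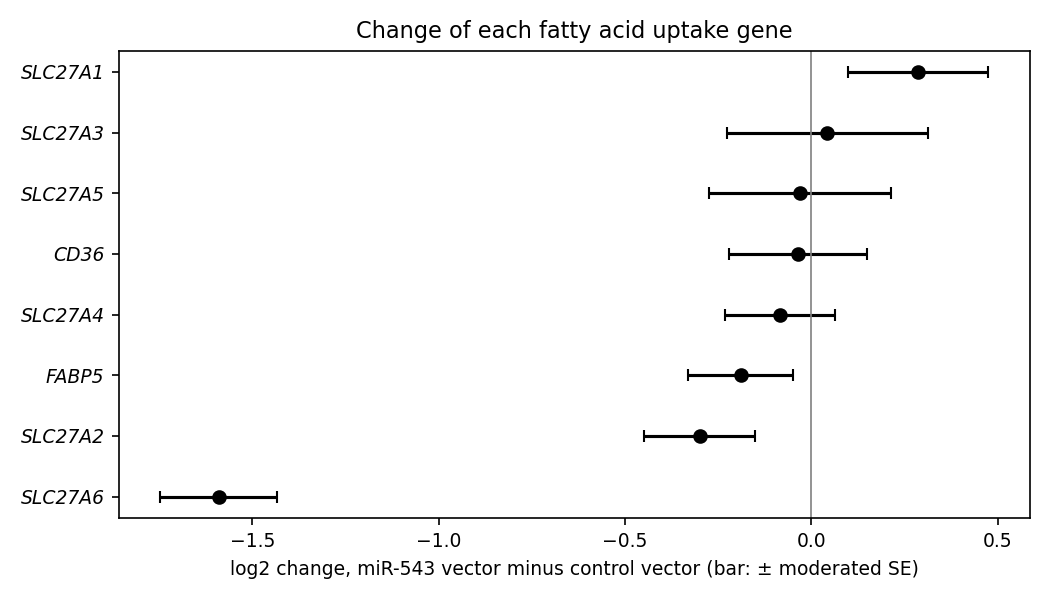
Log2 change of each of the 8 genes, miR-543 vector minus control vector, as points with the moderated standard error as bars. SLC27A6 stands at -1.59, and the other 7 genes lie between -0.30 and 0.29.

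Across the set, 6 of 8 genes had a difference below 0 and 2 above, with a median of -0.06 against 0.01 over all probe sets. In the limma fit over the whole table, SLC27A6 was the 1 gene of the 8 called at an adjusted p under 0.05, where 0.569% of all probe sets were called and 0.438% as lower. Since SLC27A6 prompted the set, nothing is read from that count. Of the other 7 genes, SLC27A2 and FABP5 had groups that did not overlap, both lower with the miR-543 vector and with their nearest arrays close together. Over all probe sets 7.5% were lower in that way and 15.4% did not overlap in either direction. The groups of SLC27A6 did not overlap either, but its difference prompted the set, so nothing is read from that. The 7 genes not called had intervals that reach from -0.63 at the lowest to 0.70 at the highest, and a p that misses the threshold does not show that they were unchanged.

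The profile of SLC27A6 over the 6 arrays was compared with that of every other named gene, by the root mean square difference after each gene was centred on its own mean. CATSPERB, which encodes part of the calcium channel of sperm, was the nearest at 0.14 log2 units, and the median over 17686 genes was 0.83. Next came FGF13, an intracellular homolog of fibroblast growth factors (0.16), the antisense transcript F11-AS1 (0.17), the collagen lysyl hydroxylase PLOD2 (0.17) and the dystrophin gene DMD (0.17). CATSPERB had a signal of 10.49, 10.41 and 10.62 on the control arrays and 8.98, 8.82 and 8.98 on the miR-543 arrays. The log2 differences of FGF13, F11-AS1, PLOD2 and DMD were -1.71, -1.38, -1.47 and -1.42. All 5 genes were thus lower on every miR-543 array, which the measure of likeness selects for. F11-AS1 lay below the array medians on all miR-543 arrays, at 4.6, 4.3 and 4.62. It also lay below them on control replicates 1 and 3, at 5.59 and 5.91, and just above on control replicate 2, at 6.15.

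**Figure D3:**
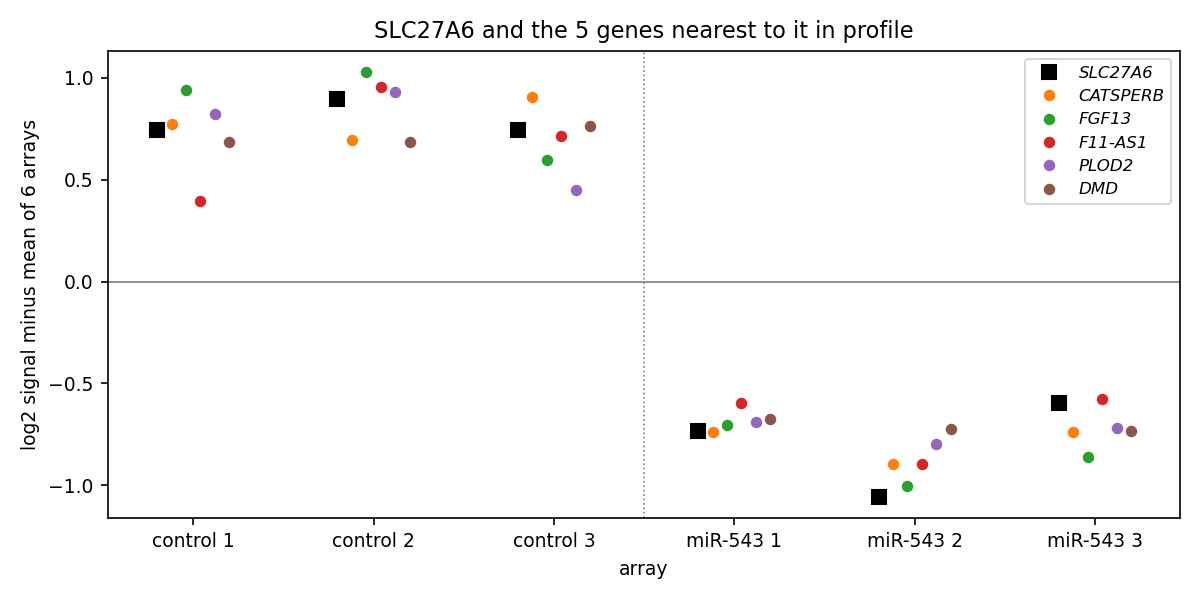
Log2 signal minus the mean of the 6 arrays for SLC27A6 (black squares) and the 5 genes nearest to it in profile (coloured points), array by array. All 6 genes lie above 0 on the 3 control arrays and below 0 on the 3 miR-543 arrays.

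SLC27A6 lies on chromosome 5, and the measured genes around it were examined to see whether its difference was shared along the chromosome. Of the 5 nearest measured genes on each side, limma called 0 of 10, and 1 had an unadjusted p under 0.05, where 10.6% of all probe sets did. That gene was ISOC1, an isochorismatase domain protein and the next measured gene after SLC27A6. Its signal was 11.79, 11.49 and 11.66 on the control arrays and 11.31, 11.22 and 10.81 on the miR-543 arrays, so the groups did not overlap. PRRC1 was the other neighbour without overlap, in the opposite direction, at 11.26 to 11.46 on the control arrays and 11.60 to 11.62 on the miR-543 arrays. That makes 2 of 10 beside 15.4% of all probe sets. The log2 difference of ISOC1 was -0.53 (SE 0.17, limma adjusted p = 0.289).

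On the other side, FBN2, which encodes fibrillin-2, had a log2 difference of -0.09, and the sodium, potassium and chloride cotransporter SLC12A2 had one of -0.29. CTXN3, PRRC1 and MEGF10 had differences of 0.12, 0.23 and 0.12. Beyond ISOC1, the metalloprotease ADAMTS19 and the chondroitin synthase CHSY3 had differences of -0.10 and -0.15, MINAR2 had 0.20 and the nucleotide-binding protein HINT1 had 0.25. The 10 neighbours were split evenly, 5 above and 5 below 0, with a median of 0.01. MEGF10, CTXN3, FBN2, ADAMTS19, MINAR2 and CHSY3 all had group means below the array medians.

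**Figure D4:**
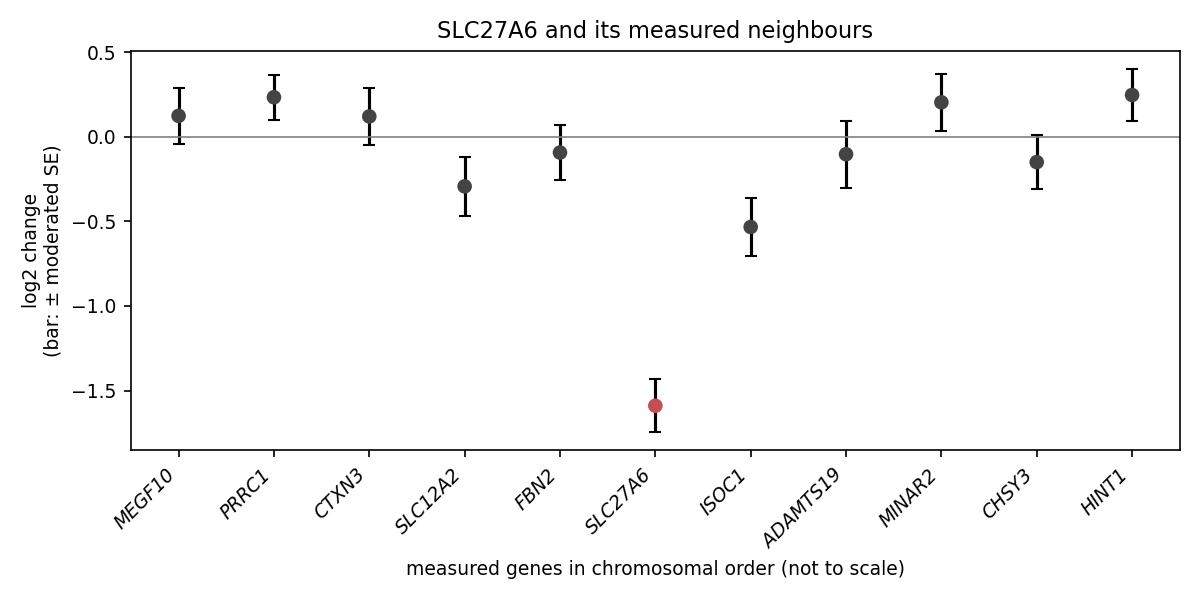
Log2 change with its moderated standard error for SLC27A6 (red) and the 5 nearest measured genes on each side (grey), in chromosomal order and not to scale. SLC27A6 stands at -1.59 and its neighbours lie between -0.53 and 0.25.

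The rest of fatty acid metabolism was covered by 8 lists with 196 genes, of which 173 were measured, none of them among the 8 genes above. CROT, which passes shortened acyl groups from coenzyme A to carnitine so that they can leave the peroxisome, was the 1 gene called, 0.578% of the measured genes beside 0.569% of all probe sets. At an unadjusted p under 0.05 there were 19 genes (11.0%), 13 higher and 6 lower, beside 10.6% of all probe sets, 5.4% higher and 5.21% lower. Both shares were close to the background, and the unadjusted share of the single lists ran from 8.33% to 15%. Of the 173 genes 116 (67.1%) lay above 0, with a median log2 change of 0.07, against 51.7% and 0.01 over all probe sets with a gene symbol.

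CROT belonged to the list of peroxisomal and very long chain fatty acid oxidation, the pathway that also uses the product of SLC27A2. Its signal was 7.94, 7.83 and 7.20 on the control arrays and 6.41, 5.83 and 6.09 on the miR-543 arrays, and the groups did not overlap. CROT fell by 1.55 on the log2 scale (SE 0.22, limma adjusted p = 0.013), from 7.66 ± 0.40 to 6.11 ± 0.29 (SD, n = 3), a 2.92-fold difference. The call of CROT was lost without control replicate 1 or 2 (adjusted p = 0.0763 and 0.0704) and without miR-543 replicate 2 or 3 (0.0536 and 0.0589); over all alternatives its adjusted p ran from 0.00126 to 0.0763. PHYH, which starts the breakdown of the branched phytanic acid, had a signal of 8.69, 8.62 and 8.67 on the control arrays and 9.37, 9.5 and 9.15 on the miR-543 arrays. These groups were clearly apart, and the log2 change of PHYH was 0.68 (SE 0.14, adjusted p = 0.0906), which passed under the trend and robust settings (0.0377, in a range of 0.0377 to 0.288). EHHADH, the bifunctional enzyme of the pathway, had a log2 change of 0.38 (adjusted p = 0.462). Of 20 measured genes in the list 14 lay above 0, with a median of 0.08.

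Acyl-CoA synthetases outside the SLC27 family share the activating step with it, and 15 of 19 measured members lay above 0. Their median was 0.13, with 0 called by limma. At an unadjusted p under 0.05 there were 2 (10.5%), both higher, beside 10.6% of all probe sets and 5.4% as higher. ACSF2, a mitochondrial synthetase, had a signal of 6.17, 5.91 and 5.64 on the control arrays and 6.62, 6.89 and 6.31 on the miR-543 arrays. Its groups did not overlap, and the log2 change was 0.70 (SE 0.19, adjusted p = 0.218). ACSL1, a long-chain synthetase, had a log2 change of 0.37 (adjusted p = 0.413), and ACSM3, a medium-chain synthetase, had one of 0.19 (adjusted p = 0.701). Groups did not overlap for 5 of the 19 genes, 4 of them higher, beside 15.4% and 7.89% of all probe sets. Over all 173 measured genes of the lists they did not overlap for 23, 15 of them higher, a smaller share than in this list.

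Surface uptake and binding held no called gene. Of 17 measured genes of other uptake and surface lipolysis 15 lay above 0 (median 0.11), and 2 had an unadjusted p under 0.05. CAV1, the coat protein of caveolae, had a log2 change of 0.38 with groups that did not overlap (adjusted p = 0.414), and lipoprotein lipase, LPL, had one of -0.54 (adjusted p = 0.456) at group means below the array medians. The difference of LPL was -0.26 without control replicate 2, which at 5.70 stood above the other controls, at 4.67 and 5.03. GPR84, a receptor for medium-chain fatty acids, had one of 0.28 (adjusted p = 0.627). Of 15 fatty acid and acyl-CoA binding proteins other than FABP5, 9 lay above 0 (median 0.05), and 2 had an unadjusted p under 0.05. FABP3 and PMP2, relatives of FABP5 in heart and in myelin, had log2 changes of 0.40 and 0.38 (adjusted p = 0.417 and 0.456), and the acyl-CoA binding protein DBI had one of 0.34 (0.50). FABP3, PMP2 and GPR84 were dim, with group means below the array medians, and the filter at the 25th percentile of mean signal removed them. The differences of FABP3, PMP2 and DBI, named for the smallest unadjusted p of their list, were opposite in sign to that of FABP5. Of the 15 genes 6 lay below 0, as FABP5 did, and FABP5 was not tested against them.

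**Figure D5:**
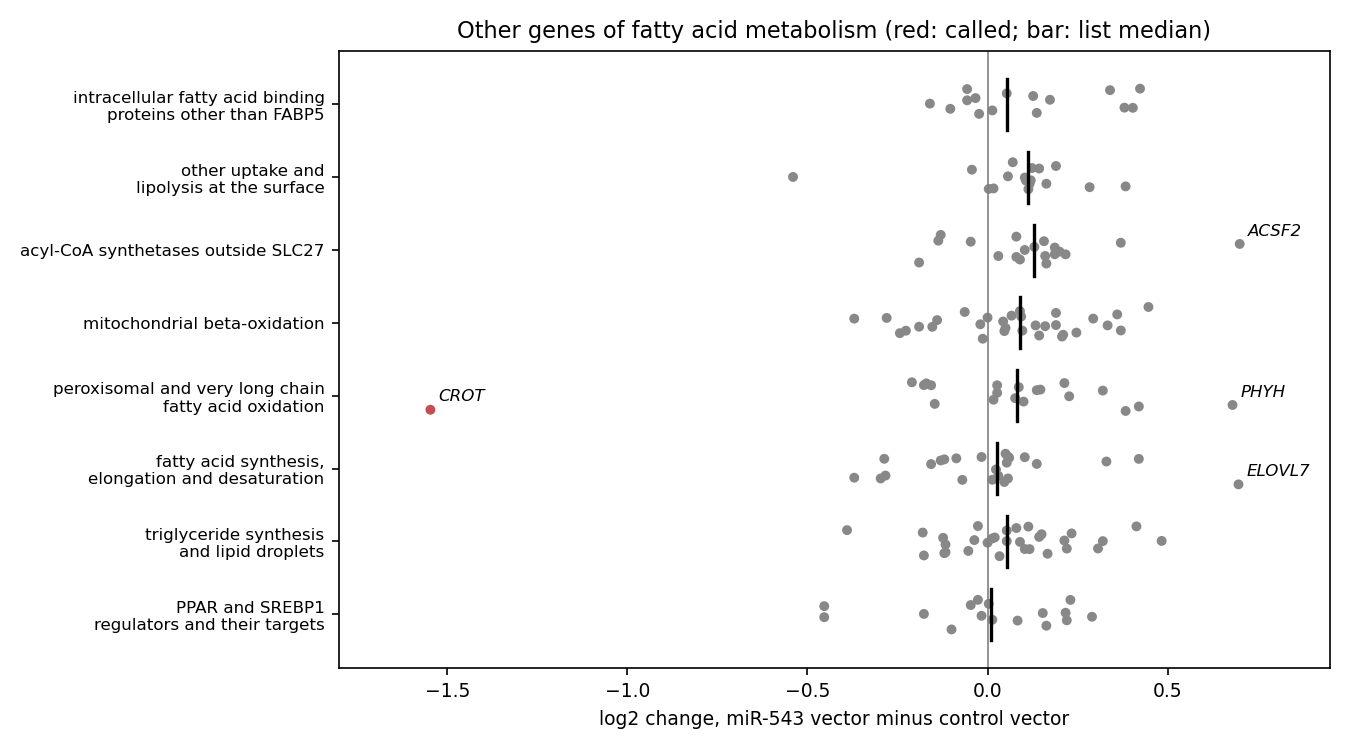
Log2 change of each of 173 measured genes of fatty acid metabolism by list, with the called gene CROT in red, all others in grey, and the list median as a black bar; points are jittered in height only. CROT stands apart at -1.55, and ACSF2, ELOVL7 and PHYH lie highest, at 0.70, 0.70 and 0.68.

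Mitochondrial oxidation, synthesis and storage likewise had no called gene. Of 31 measured genes of mitochondrial beta-oxidation 20 lay above 0 (median 0.09), with 3 at an unadjusted p under 0.05. The enoyl-CoA isomerase ECI1 and the dehydrogenase HSD17B10 had log2 changes of 0.36 and 0.45 (adjusted p = 0.401 and 0.412), and the acyl-CoA dehydrogenase ACAD10 had one of -0.37 (0.365). Of 24 genes of synthesis, elongation and desaturation 14 lay above 0 (median 0.03), with 2 at an unadjusted p under 0.05. ELOVL7, an elongase of saturated very long chains, had a signal of 9.33, 8.92 and 8.92 on the control arrays and 9.84, 9.83 and 9.59 on the miR-543 arrays. Its groups did not overlap, and the log2 change was 0.70 (SE 0.16, adjusted p = 0.129), which passed under the trend and robust settings (0.0411, in a range of 0.0411 to 0.342). The mitochondrial citrate carrier SLC25A1 had a log2 change of 0.42 (adjusted p = 0.280), and FADS3 had one of 0.33 (0.515).

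Of 31 measured genes of triglyceride synthesis and lipid droplets 20 lay above 0 (median 0.05), with 3 at an unadjusted p under 0.05. DGAT2, which adds the last acyl chain to triglyceride, had a log2 change of 0.41 (adjusted p = 0.380), and the droplet protein seipin, BSCL2, had one of 0.48 (0.437). G0S2, an inhibitor of triglyceride lipase, had one of -0.39 (0.465). Among 16 PPAR and SREBP1 regulators and targets 9 lay above 0 (median 0.01). At an unadjusted p under 0.05 there were 2 (12.5%), both lower, beside 10.6% of all probe sets and 5.21% as lower. MLX, the partner of the glucose sensor ChREBP, had a signal of 10.80, 10.79 and 10.73 on the control arrays and 10.42, 10.22 and 10.32 on the miR-543 arrays. MLX and the Mediator subunit MED1, through which PPARs act, each had a log2 change of -0.45 with groups that did not overlap (adjusted p = 0.260 and 0.317). The retinoid receptor RXRB had one of 0.29 (0.554).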

How the data were processed

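Total RNA from 6 K562 samples was hybridised to single-colour arrays as biotin-labelled cDNA, and the sample titles gave the groups. The authors deposited log2 signals per probe set to 2 decimals, made with Transcriptome Analysis Console 4.0 and RMA per the submitters' processing notes. The RMA variant and genome build are not given in the sources used here. RMA can compress differences of dim probe sets, and no detection calls were used. The table held 0 columns of other samples. The number of arrays limits the precision.

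Symbols came from the platform annotation, and gene order from the RefSeq table of GRCh38.p14, in which all 17709 named identifiers matched. The test was that of limma 3.58.1, run in R 4.3.3 (lmFit and eBayes, no trend, filter or block), over all 21448 probe sets. Calls needed a two-sided Benjamini-Hochberg adjusted p under 0.05. Where a symbol has several probe sets the one with the highest mean is used. Named by rule were the 8 genes, in each list every called gene and the 3 with the smallest unadjusted p, 5 measured neighbours of SLC27A6 on each side, and the 5 genes nearest to it in profile. The 8 genes, lists and tests were chosen with earlier results of these data known. The limma fit was tested on simulated data with independent noise on each array, which does not bear on whether the replicates were separate cultures. Alternatives were a replicate block, trend and robust settings, a filter at the 25th percentile, quantile normalization, equal medians, and leaving out each array.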

Additional observations from a re-analysis of the deposited data

How the results depend on the processing

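Over all probe sets 122 were called (28 higher, 94 lower), 252 with the trend and robust settings, and 34 to 59 when each array in turn was left out. Counts of pathway genes called went from 1 to 3 with the trend and robust settings (PHYH and ELOVL7 added) and were 0 or 1 with 1 array left out. For the 10 neighbours the count was 0 in all 11 alternatives. The count of 1 for the 8 uptake genes is SLC27A6, which prompted the set, and nothing is read from its persistence. Of the log2 differences of the 8, those of SLC27A3, SLC27A5 and CD36 crossed 0 (ranges -0.28 to 0.36, -0.28 to 0.22 and -0.19 to 0.13), and that of SLC27A1 ran from 0.093 to 0.47. With 1 array left out, signs turned for CTXN3 (-0.0017 to 0.22, below 0 without control replicate 2), FBN2 (-0.17 to 0.048, above 0 without miR-543 replicate 2) and ADAMTS19 (-0.32 to 0.060, above 0 without miR-543 replicate 3), and the cause was not tested. F11-AS1 lost its call without control replicate 3 (adjusted p = 0.0531). The filter left 134 pathway genes and 5 neighbours. Averaging several probe sets of a symbol gave no value, since each of the 8 had 1.

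Replicate numbers are shared between the groups, but same-numbered arrays did not deviate together (r = 0.095, -0.053 and 0.018 across probe sets), so the numbers were not taken to pair them, and arrays did not all correlate best with their own number. With the replicate block 71 probe sets were called, 1 of the 8 uptake genes, 1 pathway gene and 0 neighbours.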
